A study of Danio rerio with 3 samples.

Results

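The genes described here are 124 genes with symbols of 10 solute carrier families that carry amino acids, sugars or monocarboxylates (1 of them, slc7a6os, is named after its neighbour and is no transporter), out of 35117 zebrafish genes measured in whole embryos. They are all genes whose symbol begins with slc, written in lower case, followed by family number 1, 2, 3, 5, 6, 7, 16, 36, 38 or 43 and a member number. RNA came from untreated wild-type embryos at 10 hours post fertilization (hpf), when gastrulation ends, represented by 2 libraries, and from embryos of the same kind at 6 hpf, when gastrulation begins, represented by 1 library. The embryos were the offspring of a wild-type cross, and neither a transgene nor an agent is given for either stage. The labels say neither how many embryos were pooled nor whether the 10 hpf libraries came from separate clutches. Levels are the authors' RPKM values (reads per kilobase of gene, scaled by sequencing depth), 1 per gene and stage, with the 10 hpf value covering both libraries. The values used here give no spread between replicates for any level, so no SD or standard error is given, and the only test behind a call is the authors' own.

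Solute carriers move small molecules across membranes by facilitated diffusion, by exchange, or together with sodium ions or protons. Family 7 includes the transporting light chains of heteromeric amino acid transporters. These light chains reach the cell surface only when linked to a heavy chain of family 3. The cationic amino acid transporters of family 7 work without a heavy chain. Families 1, 6, 36, 38 and 43 carry amino acids and related compounds, families 2 and 5 carry sugars and a few other solutes, and family 16 carries lactate, pyruvate and other monocarboxylates. Early fish embryos draw their amino acids and lipids from yolk, and the growing cells take up large neutral amino acids and glutamine for protein synthesis. A gene is said here to have risen or fallen where the authors' deposited table lists an empirical false discovery rate under 0.05. The direction is the sign of its listed log2 fold, 10 hpf over 6 hpf. The rate estimates the share of false calls, and how it was computed is not stated in the sources used here. With 1 library at 6 hpf, it cannot reflect variation between libraries of that stage.

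The 4 most abundant transporter genes of the early gastrula all fell. These were slc3a2b (ENSDARG00000037012), a heavy chain, slc7a8a (ENSDARG00000075831), a light chain for large neutral amino acids, slc16a1b (ENSDARG00000068572), a lactate and pyruvate carrier, and slc2a12 (ENSDARG00000036865), a facilitative glucose carrier. The heavy-chain gene slc3a2b stood at 106 RPKM at 10 hpf and 338 RPKM at 6 hpf, and slc7a8a at 76.2 RPKM at 10 hpf and 244 RPKM at 6 hpf. For slc16a1b the values were 116.9 RPKM at 10 hpf and 232 RPKM at 6 hpf, and for slc2a12 they were 6.19 RPKM at 10 hpf and 108 RPKM at 6 hpf, a 17.5-fold difference. Together these 4 genes, singled out after their values were seen, made up 34.9% of the summed RPKM of all members at 10 hpf and 61.5% at 6 hpf. The sum over all members was 874 RPKM at 10 hpf and 1498 RPKM at 6 hpf, and without these 4 genes 569 RPKM and 576 RPKM. Of all genes at 5 RPKM or more at either stage 36.1% fell, and no share for genes as abundant as these 4 is given here. Genes picked for a high level at 6 hpf are more likely to be lower at 10 hpf. Leaving out genes that fell also raises the ratio of the remaining sums, 10 hpf over 6 hpf, so these sums carry no test.

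Of the 124 members, 17 rose, 31 fell and 76 were not called in the authors' deposited table. Over all genes listed there, 29.5% were called, 9.7% higher and 19.8% lower. The shares among the members were 38.7% called, 13.7% higher and 25.0% lower. Calls depend on level, so the shares were also set against genes of like abundance. Of the 52 members that reached 1 RPKM at either stage, 14 rose and 20 fell, which is 65.4% called. Of all genes at that level 49.2% were called, 16.3% higher and 32.9% lower. These shares describe the table and carry no test, and members that passed a minimum only through their higher stage are more likely to differ. For groups below whose members mostly reach 1 RPKM, the shares of all genes at that level are the closer ones.

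The fold in the authors' deposited table and the RPKM values rest on different scales. Among 7009 well-measured genes the fold was on average 0.60 lower than the log2 RPKM ratio, with an SD of 0.042 across genes, which amounts to a factor of 1.52. At 1 RPKM or more, 3 members (slc7a6os, slc1a3a and slc2a10) were at least 2-fold higher by RPKM, with a pseudocount of 1, without a call, and 0 were at least 2-fold lower without one. Without a pseudocount, slc7a14a (3.35-fold), slc16a12b (3.35-fold) and slc38a6 (3.19-fold) were also past 2-fold higher and not called. Of the 31 members that fell, 23 kept the call once folds and their conservative bounds were centred on the median gene at 5 RPKM or more, while all 17 that rose kept it, since centring raises every fold. Over all genes, 4718 of the 6946 that fell and all 3405 that rose kept the call. On the RPKM scale itself, with a pseudocount of 1, 15 of the 52 members at 1 RPKM or more were at least 2-fold higher at 10 hpf and 12 at least 2-fold lower, beside 22.1% and 18.8% of all genes at that level. The 12 lower members are 23.1% and the 15 higher ones 28.8% of the 52. With a pseudocount of 5 the numbers were 3 higher and 6 lower. All members that rose had the higher RPKM at 10 hpf, and all that fell had the lower.

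**Figure D1:**
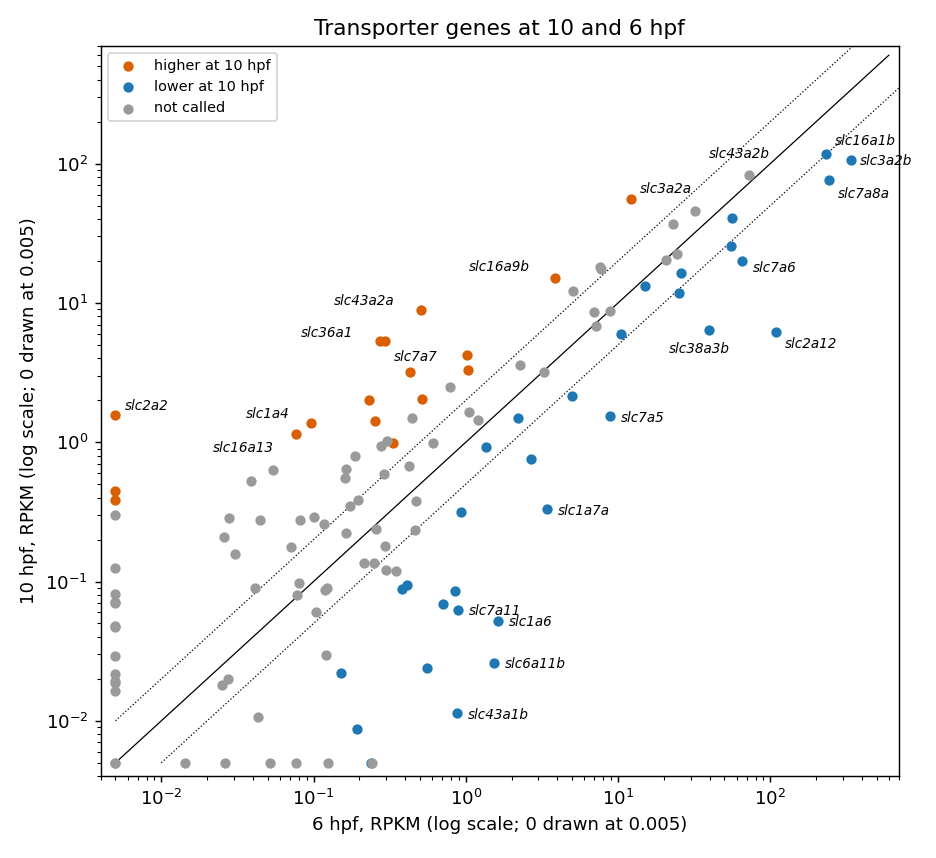
Each point is 1 of the 124 genes, with its RPKM at 10 hpf on the vertical and at 6 hpf on the horizontal axis, both on log scales, with values of 0 drawn at 0.005 RPKM. The solid line marks equal levels and the dotted lines a 2-fold ratio; colours give the call in the authors' deposited table, with 17 members higher, 31 lower and 76 not called, and the 4 genes farthest right (slc3a2b, slc7a8a, slc16a1b and slc2a12) all lie below the solid line.

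All stage markers with a call moved in the direction of the stage labels. They were chosen with earlier results of these data known, so they are no independent check of the labels. Of 6 genes of the early gastrula 5 fell and 0 rose in the authors' deposited table. All 8 genes of late gastrulation rose, which carry 7 symbols since 2 entries are named ctslb. The depth inferred from the RPKM steps was 23243194 reads for 10 hpf against 16991529 for 6 hpf, and a level of 1 RPKM equals 23.2 reads per kilobase at 10 hpf and 17.0 at 6 hpf. Whole embryos include the yolk syncytial layer and the enveloping layer, an outer epithelium. Of 11 markers of the yolk syncytial layer 5 rose and 3 fell, and their summed level was 2395 RPKM at 10 hpf and 856 RPKM at 6 hpf. Of 10 markers of the enveloping layer 2 rose and 3 fell, with a summed level of 10512 RPKM at 10 hpf and 5541 RPKM at 6 hpf. Among all genes at 1 RPKM or more 16.3% rose and 32.9% fell. The part of these layers in the transporter levels was not tested, and in whole embryos fewer cells of a type and less RNA per cell cannot be told apart.

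The duplicate heavy-chain genes moved in opposite directions. A rise was called for slc3a2a (ENSDARG00000036427), at 56.2 RPKM at 10 hpf and 12.1 RPKM at 6 hpf, a 4.63-fold difference, while its duplicate slc3a2b fell 3.18-fold. The share of slc3a2a in the summed level of the pair was 34.6% at 10 hpf and 3.47% at 6 hpf. Both genes together had 162 RPKM at 10 hpf and 350 RPKM at 6 hpf. The more abundant copy was slc3a2b at either stage. The third member of the family, slc3a1, which is the heavy chain of the cystine and basic amino acid carrier of kidney and gut in mammals, was not called at 0.378 RPKM at 10 hpf and 0.470 RPKM at 6 hpf. A further entry, SLC3A2 (1 of many), lies outside the members by its symbol in capitals. It was not called at 1.39 RPKM at 10 hpf and 1.31 RPKM at 6 hpf.

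Of 9 light chains 2 rose (22.2%), 4 fell (44.4%) and 3 were not called, beside 9.7% higher and 19.8% lower over all genes. Of all genes at 1 RPKM or more, a level that 6 of the 9 reached, 16.3% rose and 32.9% fell. Among those that fell, slc7a8a and slc7a5 (ENSDARG00000099265) carry large neutral amino acids, slc7a6 (ENSDARG00000054423) exchanges cationic for neutral ones, and slc7a11 takes up cystine in exchange for glutamate. The level of slc7a6 was 19.9 RPKM at 10 hpf and 64.7 RPKM at 6 hpf. That of slc7a5 was 1.54 RPKM at 10 hpf and 8.82 RPKM at 6 hpf, a 5.74-fold difference with a 95% counting interval of 4.33 to 7.72. The scarcer slc7a11 had 0.0629 RPKM at 10 hpf, as few as 5 reads, and 0.895 RPKM at 6 hpf, as few as 52 reads. Intervals were computed from the fewest whole reads that give both RPKM values and cover counting error only.

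The 2 light chains that rose were both under 0.3 RPKM at 6 hpf. For slc7a7 (ENSDARG00000055226), which exports cationic amino acids in exchange for neutral ones, the values were 5.32 RPKM at 10 hpf and 0.295 RPKM at 6 hpf, 18.03-fold with a counting interval of 10.2 to 35.3. For slc7a8b, the duplicate of slc7a8a, they were 1.42 RPKM at 10 hpf and 0.253 RPKM at 6 hpf. The gene slc7a8a made up 98.2% of this pair at 10 hpf and 99.9% at 6 hpf. Not called were slc7a10b, at 1.44 RPKM at 10 hpf and 1.21 RPKM at 6 hpf, slc7a10a and slc7a9. Summed over the 8 light chains that pair with slc3a2 proteins in mammals, the level was 106 RPKM at 10 hpf and 320 RPKM at 6 hpf, lower than the sum of the 2 heavy chains slc3a2a and slc3a2b at each stage.

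**Figure D2:**
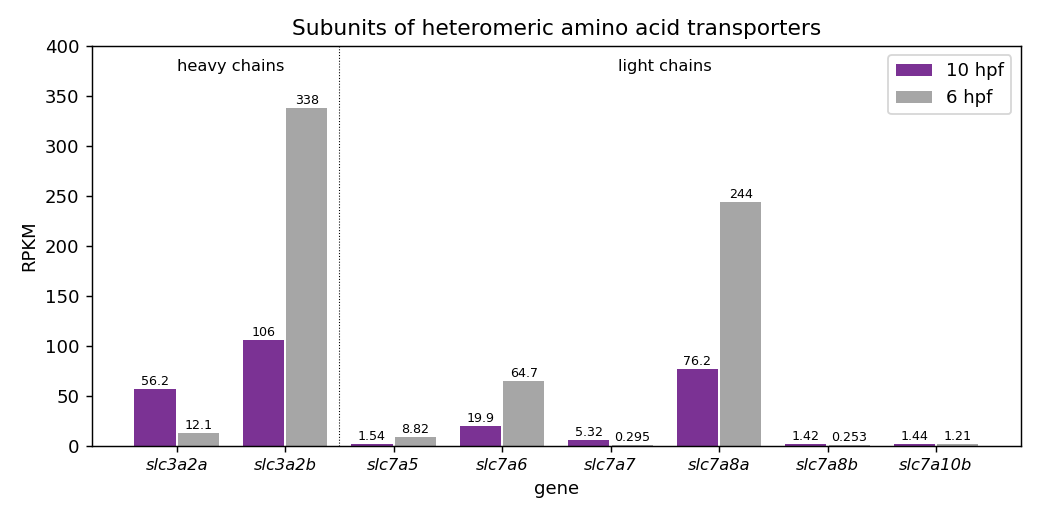
Bars give the RPKM of heavy-chain genes of family 3 and light-chain genes of family 7 at 10 hpf (left bar of each pair) and 6 hpf (right bar), 1 value per stage with no error bar. Lower bars at 10 hpf are seen for slc3a2b, slc7a5, slc7a6 and slc7a8a, and higher ones for slc3a2a, slc7a7 and slc7a8b.

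The cationic amino acid transporters of family 7 work without a heavy chain. Counted with their relatives slc7a4, slc7a14a and slc7a14b they are 7 members, of which 1 rose (14.3%) and 0 fell. Over all genes 9.7% were called higher and 19.8% lower. Of all genes at 1 RPKM or more, a level that 4 of the 7 reached, 16.3% rose and 32.9% fell. The most abundant of the 7, slc7a3a, was not called at 22.3 RPKM at 10 hpf and 24.5 RPKM at 6 hpf. Its duplicate slc7a3b rose, with 3.29 RPKM at 10 hpf and 1.04 RPKM at 6 hpf, 3.17-fold with a counting interval of 2.19 to 4.73. The summed level of the group was 31.2 RPKM at 10 hpf and 29.7 RPKM at 6 hpf. These counts and this sum leave out SLC7A1 (1 of many), whose symbol is in capitals. That gene was called lower, with 12.3 RPKM at 10 hpf and 19.0 RPKM at 6 hpf. The gene slc7a6os matches the symbol pattern but is no transporter. It lies next to slc7a6 in the RefSeq annotation of assembly GRCz12tu and was not called at 17.4 RPKM at 10 hpf and 7.78 RPKM at 6 hpf. Strand-aware counting is not stated for these data, and reads of the neighbours may not be fully separated.

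Family 43, facilitative carriers of large neutral amino acids and, for slc43a3 in mammals, of purine nucleobases, had the same summed level at both stages within 1 RPKM (139 RPKM at 10 hpf and 140 RPKM at 6 hpf). Of its 6 members 1 rose (16.7%), 3 fell (50%) and 2 were not called, beside 9.7% higher and 19.8% lower over all genes. Of all genes at 1 RPKM or more, a level that 4 of the 6 reached, 16.3% rose and 32.9% fell. Its leading gene slc43a2b was not called at 83.4 RPKM at 10 hpf and 71.9 RPKM at 6 hpf, which made it the third most abundant member at 10 hpf. The duplicate slc43a2a (ENSDARG00000036848) rose 17.5-fold, with 8.85 RPKM at 10 hpf and 0.504 RPKM at 6 hpf. A fall was called for slc43a3b, with 5.95 RPKM at 10 hpf and 10.5 RPKM at 6 hpf, and for slc43a1b, with 0.0113 RPKM at 10 hpf and 0.880 RPKM at 6 hpf. The fall of slc43a1a, at 40.96 RPKM at 10 hpf and 55.7 RPKM at 6 hpf, was not kept after centring. The duplicate slc43a3a was not called at 0.0106 RPKM at 10 hpf and 0.0435 RPKM at 6 hpf.

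Family 38 holds sodium-coupled carriers of glutamine and small neutral amino acids. Of its 13 members 1 rose (7.7%), 5 fell (38.5%) and 7 were not called, beside 9.7% higher and 19.8% lower over all genes. Of all genes at 1 RPKM or more, a level that 11 of the 13 reached, 16.3% rose and 32.9% fell. The largest fall at 1 RPKM or more was that of slc38a3b (ENSDARG00000091061), a glutamine carrier of the system N type in mammals, with 6.43 RPKM at 10 hpf and 39.3 RPKM at 6 hpf, a 6.11-fold difference. The system A carrier gene slc38a2 fell to 11.8 RPKM at 10 hpf, against 25.1 RPKM at 6 hpf, and slc38a11 to 0.0851 RPKM at 10 hpf, against 0.854 RPKM at 6 hpf. Calls of slc38a3a (0.926 RPKM at 10 hpf and 1.35 RPKM at 6 hpf) and slc38a4 (13.1 RPKM at 10 hpf and 15.0 RPKM at 6 hpf) as lower were not kept after centring.

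The member of this family that rose was slc38a5a, with 4.199 RPKM at 10 hpf and 1.02 RPKM at 6 hpf. Its more abundant duplicate slc38a5b was not called at 37.0 RPKM at 10 hpf and 22.9 RPKM at 6 hpf. The lysosomal glutamine carrier gene slc38a7, the most abundant of the family at 10 hpf, was not called at 45.7 RPKM at 10 hpf and 31.8 RPKM at 6 hpf. Nor was slc38a9, whose product senses lysosomal arginine for the growth kinase complex mTORC1, at 3.57 RPKM at 10 hpf and 2.27 RPKM at 6 hpf. Summed over the family, the level was 141 RPKM at 10 hpf and 155 RPKM at 6 hpf.

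Family 36, proton-coupled amino acid carriers of lysosomes and plasma membranes, was represented by 2 genes. A rise was called for slc36a1 (ENSDARG00000075618), at 5.37 RPKM at 10 hpf and 0.273 RPKM at 6 hpf, 19.7-fold with a counting interval of 12.6 to 32.5. Among members at 1 RPKM or more with a value above 0 at both stages, this was the largest ratio of 10 hpf over 6 hpf. The other gene, slc36a4, was not called at 0.278 RPKM at 10 hpf, as few as 17 reads, and 0.0447 RPKM at 6 hpf, as few as 2 reads.

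Family 1 holds glutamate transporters and neutral amino acid exchangers. Of 10 glutamate transporter genes 0 rose, 3 fell (30%) and 7 were not called, beside 9.7% higher and 19.8% lower over all genes. Those that fell included slc1a6 (ENSDARG00000010096), with 0.0522 RPKM at 10 hpf and 1.62 RPKM at 6 hpf, 31.1-fold with a counting interval of 15.5 to 73.2. For slc1a7a (ENSDARG00000034940) the values were 0.330 RPKM at 10 hpf and 3.41 RPKM at 6 hpf, 10.3-fold with an interval of 7.73 to 14.1. Both are known from mammals mainly as carriers of cerebellum and retina, and neither was abundant at either stage. A fall was also called for slc1a3b, at 0.0690 RPKM at 10 hpf and 0.714 RPKM at 6 hpf. The duplicate slc1a7b was not called, with 0.0482 RPKM at 10 hpf and a listed 0 at 6 hpf.

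The most abundant glutamate transporter gene was slc1a3a, named after a mammalian carrier of radial glia and astrocytes, which had 12.2 RPKM at 10 hpf and 5.02 RPKM at 6 hpf and was not called although its RPKM ratio was 2.42. It made up 99.4% of the slc1a3 pair at 10 hpf and 87.6% at 6 hpf. Of the neutral amino acid exchangers, slc1a4 rose, with 1.37 RPKM at 10 hpf and 0.0957 RPKM at 6 hpf, 14.3-fold with a counting interval of 6.76 to 36.3. The glutamine exchanger gene slc1a5 fell to 16.4 RPKM at 10 hpf, against 25.8 RPKM at 6 hpf, a call not kept after centring.

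The 25 members of family 6, sodium- and chloride-coupled carriers of neurotransmitters, amino acids, taurine and creatine, were mostly near the detection limit: 21 stayed under 1 RPKM at both stages. Of all 25, 2 rose (8%), 3 fell (12%) and 20 were not called, beside 9.7% higher and 19.8% lower over all genes. For slc6a22.1 the level was 3.19 RPKM at 10 hpf and 0.433 RPKM at 6 hpf, 7.38-fold with a counting interval of 4.71 to 12.2. The glycine carrier gene slc6a9 rose, at 0.983 RPKM at 10 hpf and 0.333 RPKM at 6 hpf. Falls were called for slc6a11b, a gene of the GABA carrier group, at 0.0260 RPKM at 10 hpf and 1.53 RPKM at 6 hpf, and for the serotonin carrier gene slc6a4a, at 0.754 RPKM at 10 hpf and 2.70 RPKM at 6 hpf. The 10 hpf value of slc6a11b fits as little as 1 read, so its 58.8-fold ratio has a counting interval of 10.0 to 2377. A fall of slc6a19a.1, which fits 1 read at 10 hpf and 5 reads at 6 hpf, was not kept after centring. The most abundant of these 25 members, slc6a16b, was not called at 8.74 RPKM at 10 hpf and 8.84 RPKM at 6 hpf. Its duplicate slc6a16a was not called either, at 0.681 RPKM at 10 hpf and 0.421 RPKM at 6 hpf. Outside the members by its symbol in capitals, SLC6A7 had 3.11 RPKM at 10 hpf and 16.5 RPKM at 6 hpf and was called lower. The duplicate slc6a4b was not called, with 0.0697 RPKM at 10 hpf and a listed 0 at 6 hpf. In the RefSeq annotation slc6a22.1 and slc6a22.2 are neighbours, as are slc6a18, slc6a19a.1 and slc6a19a.2, and close copies may share reads.

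**Figure D3:**
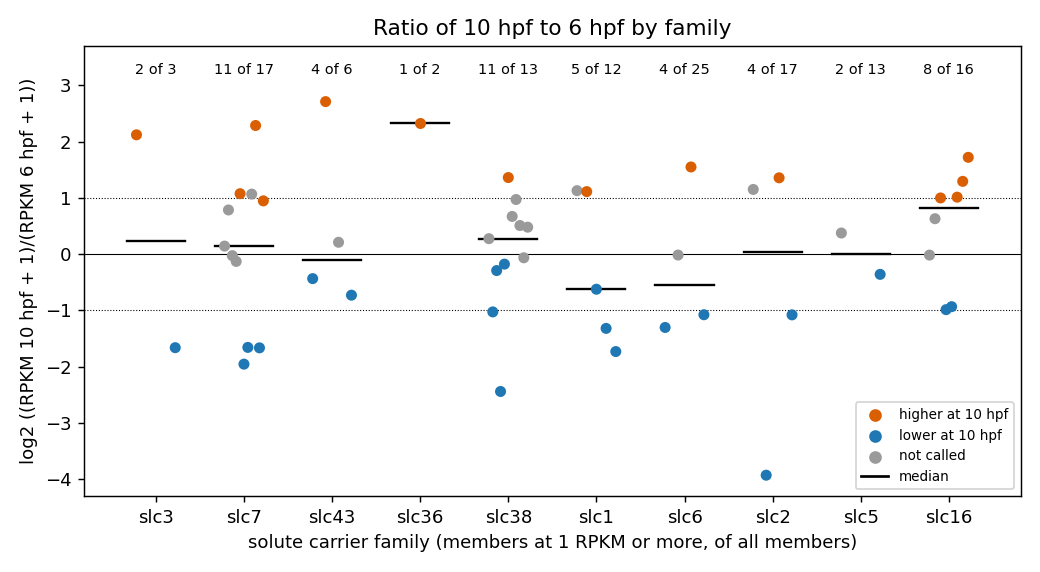
Points are members at 1 RPKM or more at either stage, placed by family, with the log2 ratio of (RPKM at 10 hpf + 1) to (RPKM at 6 hpf + 1) on the vertical axis; black bars are medians, dotted lines a 2-fold ratio, and the numbers on top count the plotted members of all members. Colours give the call in the authors' deposited table, and families 3, 7, 43, 38, 1, 6, 2 and 16 each hold members that rose and members that fell.

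Family 2, facilitative carriers of sugars and a few other solutes, had a lower summed level at the later stage, 53.6 RPKM at 10 hpf and 173 RPKM at 6 hpf. Of 17 members 3 rose (17.6%), 4 fell (23.5%) and 10 were not called, beside 9.7% higher and 19.8% lower over all genes. Besides slc2a12, a fall was called for slc2a8 (ENSDARG00000104278), an intracellular hexose carrier in mammals, with 25.5 RPKM at 10 hpf and 54.9 RPKM at 6 hpf. The gene slc2a12 made up 62.6% of the family's summed level at 6 hpf, whereas slc2a8 was the leading member at 10 hpf with 47.6%. The next in abundance, slc2a10, which in humans is linked to arterial tortuosity, was not called at 18.2 RPKM at 10 hpf and 7.66 RPKM at 6 hpf, an RPKM ratio of 2.38.

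The remaining members of family 2 were scarce, with 13 of the 17 under 1 RPKM at both stages. The liver and pancreas type glucose carrier gene slc2a2 (ENSDARG00000056196) rose, at 1.56 RPKM at 10 hpf and listed at 0 at 6 hpf. The genes for the widespread basal glucose carrier were called in opposite directions: slc2a1b had 0.448 RPKM at 10 hpf and was listed at 0 at 6 hpf, and slc2a1a had 0.0240 RPKM at 10 hpf and 0.558 RPKM at 6 hpf. The ratio of slc2a1a rests on as few as 1 read at 10 hpf and 17 reads at 6 hpf. A rise of slc2a15b (0.388 RPKM at 10 hpf, listed at 0 at 6 hpf) and a fall of slc2a6 (listed at 0 at 10 hpf, 0.237 RPKM at 6 hpf) were of the same small size.

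Family 5, sodium-coupled carriers of glucose, vitamins, iodide, choline and monocarboxylates, was the scarcest of the larger families, with a summed level of 5.45 RPKM at 10 hpf and 5.57 RPKM at 6 hpf over 13 genes. Of these 0 rose, 3 fell (23.1%) and 10 were not called, beside 9.7% higher and 19.8% lower over all genes. The renal glucose carrier gene slc5a2 fell to 0.313 RPKM at 10 hpf, against 0.933 RPKM at 6 hpf, 2.98-fold with a counting interval of 1.64 to 5.64. Falls of the vitamin carrier gene slc5a6a (1.502 RPKM at 10 hpf and 2.21 RPKM at 6 hpf) and the iodide carrier gene slc5a5 (0.0948 RPKM at 10 hpf and 0.411 RPKM at 6 hpf) were not kept after centring. The duplicate slc5a6b was not called at 0.595 RPKM at 10 hpf and 0.292 RPKM at 6 hpf. The lactate carrier gene slc5a12 was not called at 1.65 RPKM at 10 hpf and 1.04 RPKM at 6 hpf. The counts and sums of family 5 leave out SLC5A10 and the entries named SLC5A7 (1 of many), whose symbols are in capitals. SLC5A10 was not called, at 1.77 RPKM at 10 hpf, above slc5a12, and 0.576 RPKM at 6 hpf.

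Family 16 holds the monocarboxylate carriers. Of its 16 members 4 rose (25%), 4 fell (25%) and 8 were not called, beside 9.7% higher and 19.8% lower over all genes. Those that fell, slc16a1b, slc16a1a, slc16a3 and slc16a7, are all named after lactate carriers of mammals. The level of slc16a3 was 2.13 RPKM at 10 hpf and 4.97 RPKM at 6 hpf. The genes slc16a1a, at 0.0879 RPKM at 10 hpf and 0.381 RPKM at 6 hpf, and slc16a7, at 0.00880 RPKM at 10 hpf and 0.193 RPKM at 6 hpf, were scarce at both stages, and the call of slc16a1a was not kept after centring. The retinal pigment epithelium type lactate carrier gene slc16a8 rose, with 2.02 RPKM at 10 hpf and 0.230 RPKM at 6 hpf.

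The other members of family 16 that rose carry different or less well known solutes. They were slc16a9b (ENSDARG00000104687), with 15.1 RPKM at 10 hpf and 3.87 RPKM at 6 hpf, slc16a6b, with 2.06 RPKM at 10 hpf and 0.516 RPKM at 6 hpf, and slc16a13, with 1.15 RPKM at 10 hpf and 0.0766 RPKM at 6 hpf. The aromatic amino acid carrier gene slc16a10 was not called at 20.4 RPKM at 10 hpf and 20.6 RPKM at 6 hpf, and slc16a6a was listed at 0 at both stages. The summed level of the family was 162 RPKM at 10 hpf and 264 RPKM at 6 hpf, of which slc16a1b made up 72.2% at 10 hpf and 88.1% at 6 hpf. Without slc16a1b the log2 ratio of the sums, 10 hpf over 6 hpf, was 0.52. These counts and sums leave out SLC16A6 (1 of many), whose symbol is in capitals. It was not called and was more abundant than slc16a6b, at 10.2 RPKM at 10 hpf and 12.3 RPKM at 6 hpf.

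**Figure D4:**
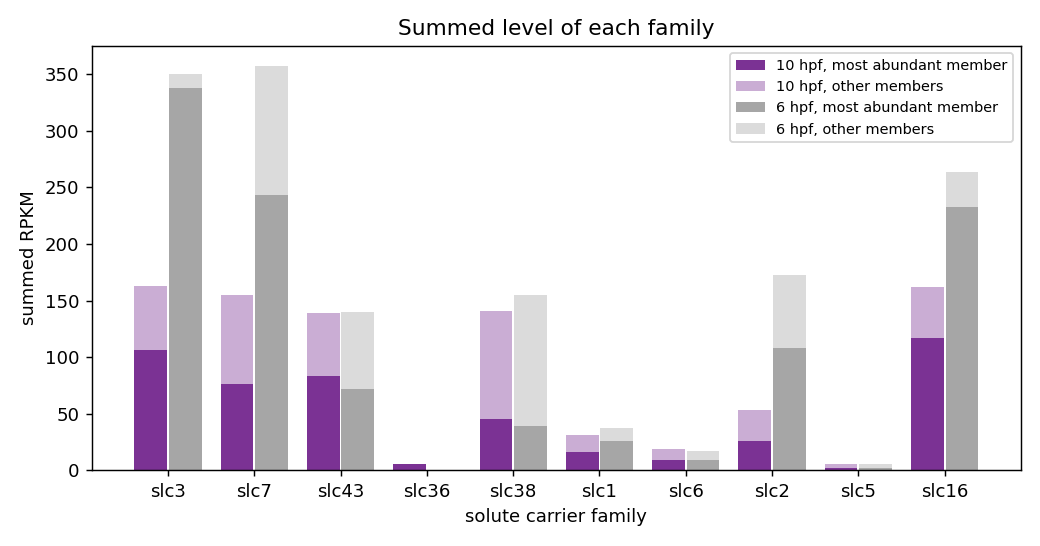
Stacked bars give the summed RPKM of each family at 10 hpf (left bar of each pair) and 6 hpf (right bar). The most abundant member of the family at each stage is in the darker shade. Genes with symbols in capitals, such as SLC6A7 of family 6 and SLC5A10 of family 5, are left out of the sums. Families 3, 7, 2, 16 and 1 had lower sums at 10 hpf, with the direction turned in families 3, 16 and 1 without the most abundant member, and family 36 a higher one, while in families 43, 38, 6 and 5 the sums of the stages were within 1.10-fold of each other.

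Genome duplication in teleosts left 31 pairs of members whose symbols differ only in a final a or b, of which 21 had a copy at 1 RPKM or more. Only slc3a2a and slc3a2b differed by at least 2-fold in opposite directions, with a pseudocount of 1. By the authors' deposited table, 3 pairs were called in opposite directions, the others being slc7a8 and slc2a1. In 11 of the 21 pairs the same copy held more than 90% of the summed level at both stages. Among these 21 pairs the more abundant copy changed in 1, slc6a11, where slc6a11a had 0.645 RPKM at 10 hpf and 0.163 RPKM at 6 hpf, the reverse order of slc6a11b. The copy that rose was the less abundant at both stages in slc3a2, slc7a8, slc7a3, slc43a2 and slc38a5, and the more abundant at both stages in slc16a6 and slc16a9. This compares only the a and b copies and leaves out SLC16A6 (1 of many), whose symbol is in capitals. That gene was not called at 10.2 RPKM at 10 hpf and 12.3 RPKM at 6 hpf, above slc16a6b at either stage. In the scarce pairs slc2a1 and slc2a15 the copy that rose was the more abundant at 10 hpf and listed at 0 at 6 hpf.

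Read numbers recovered from the RPKM values show how firmly the ratios of individual genes stand against counting error. For 26 members at 1 RPKM or more the fewest whole reads behind both values could be fitted up to a common factor. The 95% interval of the ratio covered 1 for 4 of them: slc6a16b, slc7a10b, slc7a2 and slc38a8b. The intervals of slc7a14a, slc16a12b, slc38a6, slc7a6os, slc5a12 and slc38a9 lay above 1, yet these members were not called. Intervals here rest on the RPKM scale, whereas the calls rest on the authors' fold, so the intervals are no check of the calls. None of them includes the variation between clutches or libraries, which the data do not give. For the abundant genes counting error is small, since slc2a12, for example, had 144 reads per kilobase at 10 hpf and 1840 at 6 hpf.

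**Figure D5:**
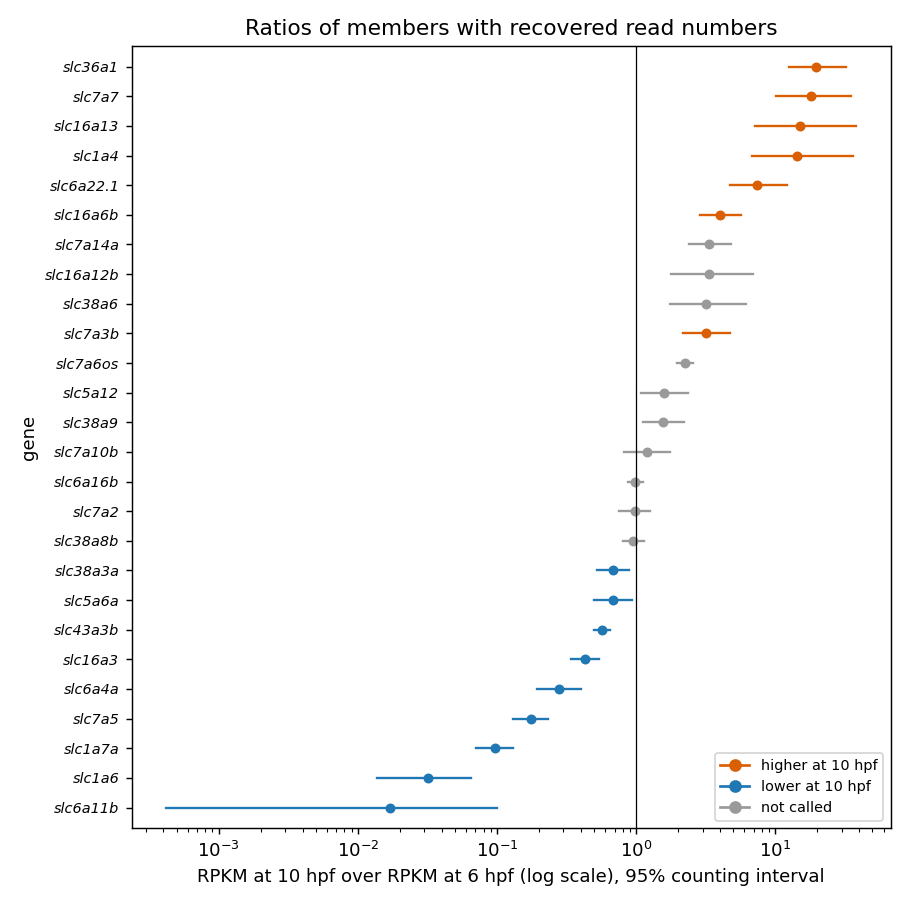
Points give the ratio of RPKM at 10 hpf to RPKM at 6 hpf on a log axis for 26 members at 1 RPKM or more with recovered read numbers, and lines the 95% exact counting interval. Colours give the call in the authors' deposited table, and the intervals of 4 members cover 1, the vertical line.

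Ranked by level, the 10 most abundant members at either stage shared 7 genes. At 10 hpf slc16a1b, slc3a2b, slc43a2b and slc7a8a led, and the 10 most abundant made up 69.8% of the summed level. At 6 hpf the order was slc3a2b, slc7a8a, slc16a1b and slc2a12, and the share was 82.8%. At the other end 72 members stayed under 1 RPKM at both stages, of which 3 rose and 11 fell, and 2 were listed at 0 at both. Among the 11, the falls of slc16a1a, slc5a5 and slc6a19a.1 were not kept after centring. Over all genes of any level 9.7% were called higher and 19.8% lower. Calls depend on level, and the shares among all genes under 1 RPKM are not given here, so nothing is read from these counts.

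Of the remaining 267 solute carrier genes with lower-case symbols, 35 rose (13.1%), 50 fell (18.7%) and 182 were not called in the authors' deposited table. Over all genes 9.7% were called higher and 19.8% lower. Of all genes at 1 RPKM or more, a level that 151 of the 267 reached, 16.3% rose and 32.9% fell. The summed level of the 267 genes was 4249 RPKM at 10 hpf and 2752 RPKM at 6 hpf. The 52 mitochondrial carriers of family 25 made up 3048 RPKM of it at 10 hpf and 1638 RPKM at 6 hpf. The median log2 ratio with a pseudocount of 1 over genes at 1 RPKM or more was 0.18 for the 52 transporter genes, 0.37 for 151 of the other solute carriers and 0.14 for all 17494 genes. No test of these differences was made. A further 11 genes carry symbols of the same families in capitals and lie outside the symbol pattern. Of these, SLC6A7 had 3.11 RPKM at 10 hpf and 16.5 RPKM at 6 hpf, and SLC7A1 (1 of many) 12.3 RPKM at 10 hpf and 19.0 RPKM at 6 hpf. Both were called lower in the authors' deposited table, and the call of 1 of them was kept after centring.

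Genes that work with these transporters were taken from lists of textbook genes. Over all genes 9.7% were called higher and 19.8% lower, and at 1 RPKM or more 16.3% and 32.9%. The counts of the lists carry no test. Of 6 matched chaperones and accessory subunits 0 rose and 3 fell, namely bsg, cd44a and EMB. The gene bsg encodes basigin, the chaperone of monocarboxylate carriers, and had 110 RPKM at 10 hpf and 144 RPKM at 6 hpf, a call not kept after centring. For cd44a, whose mammalian counterpart stabilises the cystine carrier, the values were 1.94 RPKM at 10 hpf and 20.8 RPKM at 6 hpf. For EMB, annotated as embigin, another chaperone of these carriers, they were 0.0559 RPKM at 10 hpf and 1.12 RPKM at 6 hpf.

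In the list of amino acid sensing by mTORC1, 4 of 20 genes rose (20%), 4 fell (20%) and 12 were not called. Of all genes at 1 RPKM or more, a level that 17 of the 20 reached, 16.3% rose and 32.9% fell. The falls of lamtor4 and gatsl2 were not kept after centring, which leaves 2. The kinase gene mtor, at 2.39 RPKM at 10 hpf and 0.643 RPKM at 6 hpf, and its partner rptor, at 1.39 RPKM at 10 hpf and 0.309 RPKM at 6 hpf, were among those that rose. So were the sestrin gene sesn2, at 5.31 RPKM at 10 hpf and 1.48 RPKM at 6 hpf, and depdc5, at 7.84 RPKM at 10 hpf and 2.73 RPKM at 6 hpf. The sestrin gene sesn3, at 41.5 RPKM at 10 hpf and 141 RPKM at 6 hpf, and the scaffold gene lamtor1, at 13.2 RPKM at 10 hpf and 30.4 RPKM at 6 hpf, fell.

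Of 19 genes of the amino acid response, which cells switch on when amino acids are short, 1 rose, 7 fell and 11 were not called. The share that fell, 36.8%, lies near the 32.9% of all genes at 1 RPKM or more, a level that 18 of the 19 reached. The falls of trib3 and ddit4 were not kept after centring, which leaves 5. The gene that rose was asns, for asparagine synthetase, at 11.7 RPKM at 10 hpf and 2.33 RPKM at 6 hpf. The proline synthesis genes aldh18a1 (2.06 RPKM at 10 hpf and 15.4 RPKM at 6 hpf) and pycr1b (0.323 RPKM at 10 hpf and 1.66 RPKM at 6 hpf) showed the largest falls. The most abundant gene of the list at 10 hpf, the transcription factor gene atf4a, was not called at 184 RPKM at 10 hpf and 81.3 RPKM at 6 hpf. The most abundant at 6 hpf, the transcription factor gene cebpb, fell to 50.2 RPKM at 10 hpf, against 146 RPKM at 6 hpf.

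Of 20 enzymes that use transported amino acids 2 rose (10%), 5 fell (25%) and 13 were not called. Of all genes at 1 RPKM or more, a level that 14 of the 20 reached, 16.3% rose and 32.9% fell. The falls of glulc and got2a were not kept after centring, which leaves 3. The glutathione synthetase gene gss fell to 0.419 RPKM at 10 hpf, against 5.79 RPKM at 6 hpf, and glud1b, a glutamate dehydrogenase gene, fell to 14.95 RPKM at 10 hpf, against 35.5 RPKM at 6 hpf. The glycine cleavage gene amt rose, with 6.25 RPKM at 10 hpf and 0.512 RPKM at 6 hpf, as did got2b, a mitochondrial aspartate aminotransferase gene, with 11.3 RPKM at 10 hpf and 2.32 RPKM at 6 hpf. The most abundant, the glutamine synthetase gene glula, was not called at 309 RPKM at 10 hpf and 325 RPKM at 6 hpf.

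Of 17 sugar and lactate genes 7 rose (41.2%), 2 fell (11.8%) and 8 were not called. Of all genes at 1 RPKM or more, a level that 12 of the 17 reached, 16.3% rose and 32.9% fell. The arrestin-related gene txnipb, whose mammalian counterpart limits glucose uptake, rose, with 1.20 RPKM at 10 hpf and 0.0282 RPKM at 6 hpf. Its far more abundant duplicate txnipa was not called at 73.2 RPKM at 10 hpf and 40.6 RPKM at 6 hpf. A rise was also called for gpia, a glycolytic isomerase gene, with 4.82 RPKM at 10 hpf and 0.980 RPKM at 6 hpf. The 2 falls, of pfkfb2b and pfkfb4b, were not kept after centring. The lactate dehydrogenase gene ldhba, the most abundant of the list, was not called at 111 RPKM at 10 hpf and 82.1 RPKM at 6 hpf.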

How the data were processed

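Total RNA of whole embryos was extracted with Trizol and sequenced on libraries made by Illumina methods, per the labels' protocols. TopHat2 2.1.1 and genome build GRCz10 are named in the submitters' processing notes; for the read counter, annotation, filters and scaling, these were not given in the sources used here. Per the file headers, the authors deposited 1 RPKM value per stage, a log2 fold change, a lower-bound log2 fold named GFOLD(0.01) and an empirical false discovery rate, here read as an adjusted p-value. Values of single libraries were not analysed here, so no test of a difference was made beside the authors' own.

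Members were found by symbol (124 of 124 identifiers are in a table of gene names). Members and lists were chosen with earlier results of these data known. Total reads per stage were fitted to the low RPKM values of 5S rRNA genes, of which 94.3% (105 values, 10 hpf) and 92.5% (187 values, 6 hpf) were whole reads within 0.01 bases of a whole gene length. Reads of members are the fewest whole reads giving both RPKM values for a gene length of 700 to 9000 bases, and ratio intervals are exact (Clopper-Pearson) at 95%. Ratios of named genes carry no pseudocount. The recovery was tested on simulated data, by whether the true length and reads were among those that fit. The choice of the fewest reads and the smallest read numbers were not part of that test. Python 3.11.15, pandas 2.3.3 and scipy 1.17.1 were used.

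In each family the genes named are up to 3 called members per direction with the largest fold at 1 RPKM or more, the most abundant member, the most abundant one not called, and duplicates of these. From each linked list, up to 2 called genes per direction and the most abundant gene are named. Further members and listed genes were named after their values were seen. Alternatives were other pseudocounts (0.1 and 5), minimum levels, a false discovery rate under 0.01, a minimum fold, centring, the deposited fold in place of the RPKM ratio, the symbols in capitals and the omission of slc7a6os, the last 2 chosen after seeing the data. Promoter motifs were not searched.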

Additional observations from a re-analysis of the deposited data

How the results depend on the processing

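No paired analysis was possible because only the 10 hpf titles carry replicate numbers and each stage has 1 value per gene; leaving out a replicate, the replicate block and count tests were not run for the same reason. The number of members that rose (17) was 5 among members reaching 5 RPKM, and the number that fell (31) was 20 among those reaching 1 RPKM and 13 among those reaching 5 RPKM, since these minimums keep fewer members. Members at least 2-fold higher (15) numbered 3 with a pseudocount of 5 and 8 among those reaching 5 RPKM; those at least 2-fold lower (12) were 6 with a pseudocount of 5 and 19 on the deposited log2 fold. No direction is given for the median log2 ratio of the members (0.18), which was −0.063 for those reaching 5 RPKM and −0.35 on the deposited fold.

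Most family medians rest on few genes and changed sign. That of family 1 (−0.62) was 0.25 at 5 RPKM or more. Family 2 (0.04) gave −0.29 with a pseudocount of 5, −0.020 over all members, −1.08 from 5 RPKM and −0.56 on the deposited fold. Family 3 (0.23) gave −0.093 over all members and −0.39 on the deposited fold. Family 5 (0.0092) gave −0.0049 with a pseudocount of 5, −0.0094 over all members and −0.54 on the deposited fold. Family 6 (−0.55) gave 0.031 over all members and −1.502 on the deposited fold. Family 7 (0.14) gave −0.89 from 5 RPKM and −0.28 on the deposited fold. Family 16 (0.82) gave −0.016 at 5 RPKM or more. Family 36, with 1 gene at that level (2.32), gave 3.87 with a pseudocount of 0.1, 0.98 with 5, 1.31 over both members and 3.60 on the deposited fold. Family 38 (0.28) gave −0.063 over all members, −0.063 among those reaching 5 RPKM and −0.28 on the deposited fold. The cause was not tested.

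Without its most abundant member, the log2 ratio of a family's summed level was 0.36 for family 1 (−0.26 with it), −0.45 for family 2 (−1.69), 2.16 for family 3 (−1.11), 0.23 for family 5 (−0.03), −0.52 for family 7 (−1.20), 0.52 for family 16 (−0.70) and 2.64 for family 36 (4.15). Other solute carriers had a median of 0.21 with a pseudocount of 5 (0.37). Pairs in opposite directions were 3 by calls (1 by RPKM ratio). At a false discovery rate under 0.01, 2 mTORC1 genes (4) and 3 sugar and lactate genes (7) rose. The remaining 69 recomputed values kept their sign, and the counts among them stayed within 1.5 times. Depth limits genes under 1 RPKM most, where a value can rest on 1 read.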
